A study of Mus musculus with 6 samples.

Results

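Genes that build and run the primary cilium were followed in tailbuds of mouse embryos. The list of 44 genes was fixed by name and covers the intraflagellar transport trains, their motors, the BBSome, the transition zone and the ciliary membrane. All 44 are among the 37310 gene identifiers of each count file, and all 44 passed the filter on low counts that left 15471 genes to test. The tissue was the tailbud at embryonic day 9.5, on an outbred CD-1 background, as polyadenylated RNA. The groups were 3 libraries of wild-type embryos (WT/WT) and 3 of embryos homozygous for Danforth's short tail (Sd/Sd), a mutation caused by inserted DNA close to Ptf1a, a transcription factor gene, that shortens the tail. Where material was short, tailbuds of 2 embryos were pooled, in libraries that the sources used here do not name. The labels do not tie libraries to litters, and each p-value therefore reflects only the spread among these libraries, which may be technical. Total counts lay between 41788978 and 62296689 a library. The series' title puts hedgehog signalling at the centre of the mutant's defect, and the comparison below asks whether the RNAs of the organelle that receives the hedgehog signal differ between the genotypes.

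The primary cilium is a single antenna-like projection of the cell, built on a centriole. Its proteins are carried outward by kinesin-2 along trains of the IFT-B and IFT-A complexes and carried back by dynein-2, while the BBSome removes membrane proteins and the transition zone at the base acts as a gate. In vertebrates the hedgehog receptor Patched1, the transducer Smoothened and the Gli factors act at the cilium. Mouse embryos that lack certain of its transport motors or IFT-B subunits, though not every one, fail to pattern the ventral neural tube. RFX transcription factors are known regulators of cilium genes in animals and bind a motif called the X-box, which consists of an inverted repeat.

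The promoters of these genes carried X-box-like letters at a higher share than promoters at large, a description for which no test was run. A promoter here is a 300-base window, 250 bases before to 50 after the start site, from RefSeq on GRCm38.p6, a later build than the one the authors mapped to. Windows were found for 38 of the 44 genes, with none for Ift80, Ift81, Ift122, Dync2li1, Iqce and Tmem67. An X-box-like motif of 14 bases, an inverted repeat searched on both strands with a pattern that is not spelled out here, matched in 8 of 38 members (21.1%) and in 403 of 27025 genes of the whole table (1.49%). Among genes of the table with at least 1 count in these libraries it matched in 260 of 13409 (1.94%), and among the other primary cilium genes described further on in 9 of 66 (13.6%). The size of this difference moved with the pattern, of which 4 were tried. A looser pattern that contains this motif matched in 11 of 38 members (28.9%) and in 9.52% of genes with a count. A stricter pattern within it matched in 3 members (7.89%) and in 0.626% of those genes, and a fully fixed inverted repeat in 0 of 38 members and 0.0224% of those genes. The 9 matches of this motif are shown with up to 8 flanking bases on each side because these letters, which did not choose the genes, recur across roles. Capitals mark the 14 matched bases, each sequence reads 5′ to 3′ on the strand of the gene, whose sign follows the GRCm38.p6 coordinates, and positions count from the start site.
Bbs7, chr3:36613489-36613518 (- strand), bases -121 to -108: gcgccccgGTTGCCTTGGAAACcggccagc
Tctn1, chr5:122264411-122264432 (- strand), bases 37 to 50: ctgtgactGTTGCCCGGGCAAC
Tctn2, chr5:124598679-124598708 (+ strand), bases -62 to -49: gattggagGTTACCATGGCTACtggtcctc
Mks1, chr11:87853183-87853212 (+ strand), bases -24 to -11: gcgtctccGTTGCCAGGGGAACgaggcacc
Ift57, chr16:49699199-49699228 (+ strand), bases -87 to -74: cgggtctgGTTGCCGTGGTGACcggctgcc
Ift22 first match, chr5:136908079-136908108 (+ strand), bases -63 to -50: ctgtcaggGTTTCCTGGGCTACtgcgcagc
Ift22 second match, chr5:136908109-136908138 (+ strand), bases -33 to -20: tgttcccgGTCGCCGTGGAAACtgaccagc
Bbs4, chr9:59353464-59353493 (- strand), bases 24 to 37: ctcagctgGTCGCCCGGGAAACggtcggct
Bbs1, chr19:4906605-4906634 (- strand), bases 2 to 15: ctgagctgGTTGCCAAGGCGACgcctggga
The matches come from 3 transition zone genes (Tctn1, Tctn2 and Mks1), 3 BBSome genes and 2 IFT-B genes, and 6 of the 9 lie upstream of the start site. A match of letters is a description and not a binding site. The windows were also rich in CpG: 38 of 42 member windows (90.5%) held at least 10 CpG dinucleotides. Of the windows of genes with a count here, 68.2% did, so this share differs along with the motif share. The medians lay closer, at 20 against 17 CpG per window and 59.7% against 59.3% GC.

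**Figure D1:**
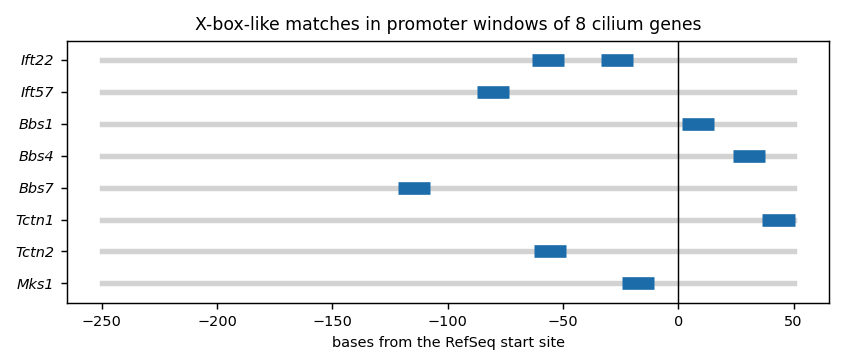
Position of the X-box-like matches (blue blocks) in the 300-base promoter windows (grey bars) of the 8 cilium genes that hold a match, with the horizontal axis in bases from the RefSeq start site (vertical line). Matches lie within 121 bases upstream and 50 bases downstream of the start, and Ift22 holds 2.

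No cilium gene differed between Sd/Sd and WT tailbuds past the threshold, and for 43 of the 44 the 95% interval of the difference lay inside 1.5-fold. With edgeR's quasi-likelihood test, 0 of 44 members passed an adjusted p of 0.05 (Benjamini-Hochberg over all genes), in a comparison that called 0.0582% of all 15471 genes (0.0388% higher and 0.0194% lower in Sd/Sd). At an unadjusted p under 0.05 there was 1 member, Ift140, against 2.90% of all genes (0.944% higher in Sd/Sd); DESeq2, which called 0.220% of all genes, and limma-voom, which called 0.0194%, each called 0 members. The log2 fold changes (Sd/Sd over WT) had a median of 0.05, against 0.00 for all genes tested, and 33 of 44 were positive, where 50.1% of all genes had a negative value. Outside Kif17 they ran from -0.17 to 0.19, or a change in level of -10.9% to 13.8%. The same fit did call Shh, a hedgehog ligand gene used below as a notochord and floor plate marker, with a log2 fold change of -1.49 (edgeR adjusted p = 0.0438). Shh stood at 15.5, 13.4 and 16.5 CPM (counts scaled to library size with TMM factors) in WT and 6.74, 5.09 and 4.30 CPM in Sd/Sd. That call was lost on leaving out any of the 6 libraries in turn (edgeR adjusted p from 0.0615 to 0.263), with edgeR without its robust option (0.0785) and with limma-voom (0.0860). It held with DESeq2 (adjusted p = 2.64e-11), with a replicate block (edgeR adjusted p = 0.0103) and with the other scalings and filters. The log2 fold change of Shh lay between -1.36 and -1.68 in every setting. Ihh, a hedgehog ligand gene used below as a hindgut marker, was also called (log2 fold change -1.93, edgeR adjusted p = 0.0438). With limma-voom 0 genes were called lower in Sd/Sd, so the call of Ihh was lost there. Calls of Ihh under the other settings are not given here. In bulk tissue fewer cells of a type and less RNA per cell cannot be told apart.

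A missed threshold does not show that values are alike, so each difference was also given its interval from the fitted standard error. For 43 members the whole interval lay inside 1.5-fold in either direction, and the widest reach was 1.45-fold higher (Bbs7) and 0.745-fold (B9d1). Among the 6656 tested genes with a mean level in the range of those 43 members (8.74 to 90.4 CPM), 90.6% had an interval inside 1.5-fold and 97.1% inside 2-fold. Over all genes tested the shares were 62.5% and 77.6%. At their level the background share is itself high. With intervals widened to hold for the 44 members jointly (99.9% each), 43 members stayed inside 2-fold and 26 inside 1.5-fold. Where 43 members lay inside a bound, the exception was Kif17, whose low counts gave no useful bound. With the widened intervals, further members besides Kif17 reached past 1.5-fold.

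**Figure D2:**
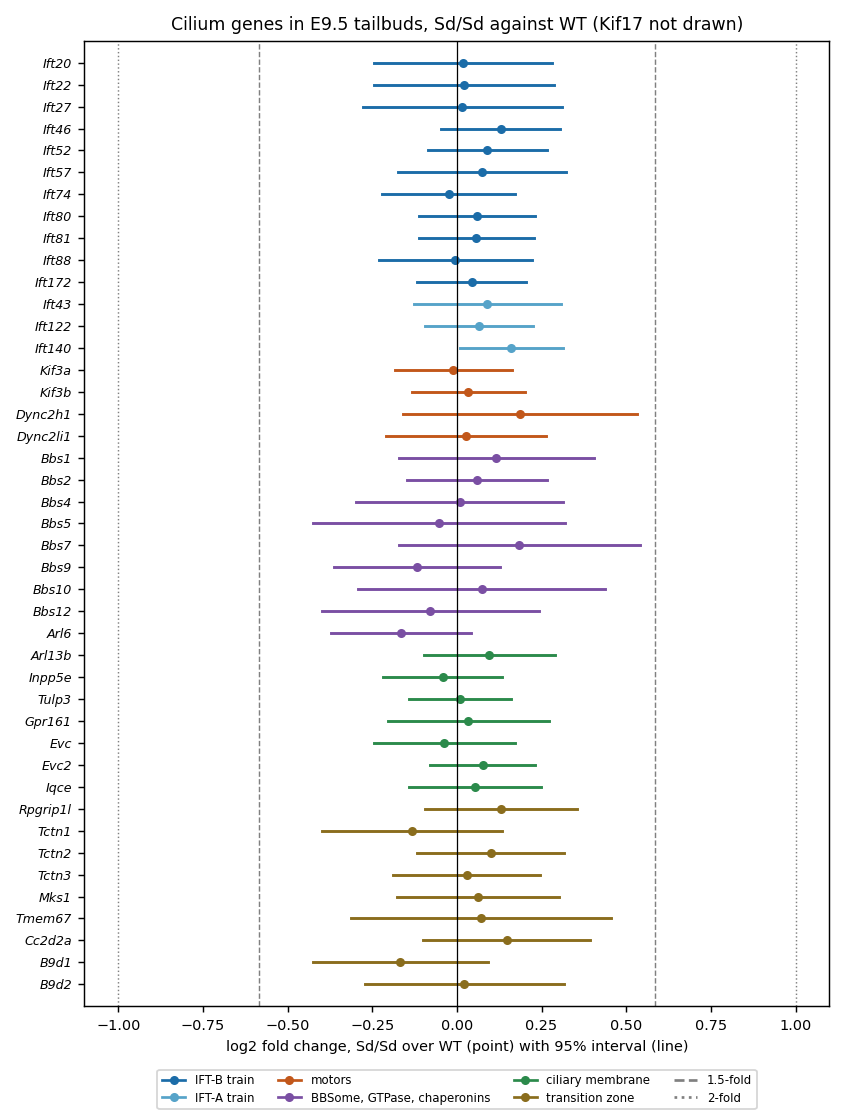
Log2 fold change of Sd/Sd over WT (points) with its 95% interval (lines) for 43 cilium genes, coloured by role, with dashed lines at 1.5-fold and dotted lines at 2-fold; Kif17 is left out because its interval runs from -1.65 to 3.20. Every interval drawn lies between the dashed lines, and only that of Ift140 stays clear of 0.

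The IFT-B train, which carries tubulin and other cargo toward the tip, had 11 of 11 members inside 1.5-fold, 9 with a positive and 2 with a negative log2 fold change (median 0.04, range -0.02 to 0.13). Ift88 (ENSMUSG00000040040.9), a core subunit whose hypomorphic mouse allele is a classic cilium mutant, stood at 26.4, 26.0 and 29.8 CPM in WT replicates 1 to 3 and at 26.6, 25.5 and 29.9 CPM in Sd/Sd replicates 1 to 3. The 2 groups covered the same range, and its log2 fold change was 0.00 (95% interval -0.23 to 0.22). Ift172 (ENSMUSG00000038564.7), a peripheral subunit at which mouse screens tied intraflagellar transport to hedgehog signalling, measured 50.1, 45.5 and 48.5 CPM in WT and 49.5, 48.7 and 50.3 CPM in Sd/Sd. Its interval, -0.12 to 0.20 around 0.04, reached neither bound by a wide margin.

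Ift46 (ENSMUSG00000002031.4), an IFT-B subunit, had the largest log2 fold change of this train. It stood at 62.7, 54.2 and 60.8 CPM in WT and 62.9, 64.0 and 67.4 CPM in Sd/Sd, so the groups did not overlap, with Sd/Sd replicate 1 just above the highest WT library. The log2 fold change was 0.13 (interval -0.05 to 0.31, edgeR adjusted p = 1.00). The other 8 IFT-B genes, Ift20, Ift22, Ift27, Ift52, Ift57, Ift74, Ift80 and Ift81, had overlapping groups and log2 fold changes of -0.02 to 0.09. Ift27, a small GTPase that links the train to the BBSome, and Ift20, a subunit also found at the Golgi, had the largest within-group SD of this train (0.18 and 0.16 on the log2 scale). Ift20 ran from 23.0 CPM in Sd/Sd replicate 1 to 30.5 CPM in Sd/Sd replicate 3.

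The IFT-A train, which serves return transport and the entry of membrane receptors, had 3 of 3 members with a positive log2 fold change (median 0.09) and 0 past the threshold. Its 3 genes summed to 118.2, 117.8 and 118.2 CPM in WT and 128.9, 127.7 and 127.2 CPM in Sd/Sd. Of the 6 roles this was the only one whose sums did not overlap between the groups. The sums over all 44 genes, given below, did not overlap either. No test was run on these sums. Ift140 (ENSMUSG00000024169.8), a core subunit, was the only member with an unadjusted p under 0.05. No member had such a p with the replicate block, or on leaving out any of the 3 WT libraries or Sd/Sd replicate 1. Its WT libraries held 57.0, 58.2 and 54.8 CPM and its Sd/Sd libraries 65.8, 62.9 and 61.4 CPM. All 3 mutant values lay above all 3 wild-type values, by a small margin in level (log2 fold change 0.16, interval 0.01 to 0.31, edgeR adjusted p = 1.00). Ift122 (ENSMUSG00000030323.7), whose loss in mice raises hedgehog output, measured 42.5, 40.3 and 43.8 CPM in WT and 44.01, 43.90 and 44.67 CPM in Sd/Sd. The groups were again separate, with a gap smaller than the range within WT (log2 fold change 0.07, interval -0.09 to 0.23). Ift43, the third of these subunits, had overlapping groups and a log2 fold change of 0.09 (interval -0.13 to 0.31).

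In all, the groups failed to overlap for 4 members, 3 higher in Sd/Sd (Ift46, Ift122 and Ift140) and 1 lower (Arl6). Over all genes tested, 7.68% had groups without overlap, 3.26% with Sd/Sd higher and 4.42% with Sd/Sd lower, so 4 of 44 is close to the background.

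Motor genes had 4 of 5 members inside 1.5-fold and 0 past the threshold (median log2 fold change 0.03). Kif3a (ENSMUSG00000018395.12), a motor subunit of the heterotrimeric kinesin-2 that drives outward transport, stood at 58.2, 55.6 and 51.8 CPM in WT and 57.9, 52.6 and 54.0 CPM in Sd/Sd, and its groups overlapped (log2 fold change -0.01, interval -0.18 to 0.16). Kif3b, its partner motor subunit, had a log2 fold change of 0.03 (interval -0.13 to 0.20). Dync2li1, the light intermediate chain of dynein-2, had 0.03 (interval -0.21 to 0.26).

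Dync2h1 (ENSMUSG00000047193.8), the heavy chain of dynein-2, varied most among the well-expressed motors. It measured 48.8, 48.1 and 50.6 CPM in WT, a narrow band, and 57.7, 42.8 and 67.5 CPM in Sd/Sd. The mutant libraries lay on both sides of the wild-type band, with replicate 2 the lowest and replicate 3 the highest of all 6 libraries. Its log2 fold change of 0.19 (interval -0.16 to 0.53) went to 0.35 without Sd/Sd replicate 2 and came down to 0.03 without Sd/Sd replicate 3.

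Kif17 (ENSMUSG00000028758.5), a homodimeric kinesin-2 known from neurons and photoreceptors, was near the limit of detection. Its counts were 9, 19 and 2 in WT and 0, 24 and 30 in Sd/Sd, or 0.171, 0.360 and 0.0474 and 0, 0.383 and 0.612 CPM. Sd/Sd replicate 1 had no count, which at 3 counts still allows 0.0728 CPM, and the other 2 mutant libraries were the highest. The fitted log2 fold change of 0.77 had an interval from -1.65 to 3.20, and limma-voom put it at -0.02, so neither direction nor size could be read at this depth.

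BBSome genes, with the GTPase Arl6 that recruits the coat to membranes and the chaperonin-like Bbs10 and Bbs12 that assemble it, had 5 positive and 4 negative log2 fold changes among 9 (median 0.01). Arl6 (ENSMUSG00000022722.11) held 22.3, 20.7 and 20.6 CPM in WT and 18.9, 19.0 and 18.8 CPM in Sd/Sd. The mutant libraries were nearly equal and all below the wild type. The log2 fold change was -0.16 (interval -0.37 to 0.04, edgeR adjusted p = 1.00), a level 0.892 times that of WT. Bbs7 (ENSMUSG00000037325.4), a core BBSome subunit, had 10.1, 14.1 and 14.5 CPM in WT and 13.9, 14.2 and 15.8 CPM in Sd/Sd. WT replicate 1 stood apart as the lowest library, the other 5 lay between 13.9 and 15.8 CPM, and without it the log2 fold change of 0.18 (interval -0.17 to 0.54) fell to 0.04.

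The other BBSome subunits, Bbs1, Bbs2, Bbs4, Bbs5 and Bbs9, and the chaperonin-like Bbs10 and Bbs12 had log2 fold changes between -0.12 (Bbs9) and 0.12 (Bbs1), all with overlapping groups. This role had the largest spread between libraries, with a median within-group SD of 0.17 on the log2 scale, against 0.05 for IFT-A and 0.09 for IFT-B. It also holds the member with the lowest CPM after Kif17, Bbs5, at 8.90 ± 0.196 CPM in WT (SD, n = 3).

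Ciliary membrane genes, several of which act directly on hedgehog signalling, had 7 of 7 members inside 1.5-fold and log2 fold changes of -0.04 to 0.10 (median 0.03). Arl13b (ENSMUSG00000022911.9), a ciliary GTPase whose loss disturbs hedgehog output, measured 25.5, 27.9 and 25.5 CPM in WT and 29.3, 27.8 and 27.3 CPM in Sd/Sd, with overlap (log2 fold change 0.10, interval -0.10 to 0.29). Inpp5e (ENSMUSG00000026925.10), the phosphatase that Arl13b brings to the cilium, measured 45.6, 43.5 and 40.7 and 42.4, 43.8 and 40.0 CPM (-0.04, interval -0.22 to 0.13). In the annotation used for names, 20.3% of its exon length is shared with Pmpca on the opposite strand; the library kit keeps the strand, but use of the strand in counting was not stated, and some of these counts may be those of Pmpca.

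Receptor traffic at the membrane was represented by an adaptor and its cargo, both with overlapping groups. Tulp3 (ENSMUSG00000001521.6), the adaptor that brings receptors into the cilium together with IFT-A, was the member with the most CPM, at 88.3, 87.5 and 94.4 in WT and 94.5, 88.3 and 89.1 in Sd/Sd. Its interval was -0.14 to 0.16 around 0.01. Gpr161 (ENSMUSG00000040836.8), a receptor carried by Tulp3 that holds the pathway down through cyclic AMP, had 22.3, 22.6 and 19.9 CPM in WT and 22.3, 23.9 and 20.2 CPM in Sd/Sd. The mutant libraries held both the highest value and values within the wild-type range (log2 fold change 0.03, interval -0.20 to 0.27).

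The Ellis-van Creveld complex, which sits above the transition zone and helps activated Smoothened to signal, was represented by 3 genes. Evc (ENSMUSG00000029122.5) stood at 47.2, 43.5 and 42.4 CPM in WT and 44.3, 46.9 and 38.4 CPM in Sd/Sd, lowest in Sd/Sd replicate 3 (log2 fold change -0.04, interval -0.25 to 0.17). Evc2 (ENSMUSG00000050248.10), its partner, stood at 66.4, 62.4 and 63.0 and 70.7, 66.7 and 64.8 CPM (0.08, interval -0.08 to 0.23). Iqce (ENSMUSG00000036555.8), which anchors both, stood at 34.2, 31.7 and 37.4 and 37.4, 34.8 and 35.1 CPM (0.05, interval -0.14 to 0.25). The groups overlapped for Evc, Evc2 and Iqce.

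Transition zone genes had 7 positive and 2 negative log2 fold changes among 9 (median 0.06, range -0.17 to 0.15), 0 past the threshold and 9 inside 1.5-fold. Rpgrip1l (ENSMUSG00000033282.7), a scaffold of the gate, held 25.5, 26.1 and 25.6 CPM in WT and 30.4, 24.7 and 29.4 CPM in Sd/Sd. WT libraries were nearly equal, while Sd/Sd replicate 2 lay below them and replicates 1 and 3 above (log2 fold change 0.13, interval -0.09 to 0.36). Cc2d2a (ENSMUSG00000039765.9), a membrane-anchoring scaffold of the same gate, held 25.6, 22.3 and 24.9 and 26.2, 24.2 and 30.2 CPM (0.15, interval -0.10 to 0.39), with its highest value in Sd/Sd replicate 3.

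B9d1 (ENSMUSG00000001039.5), a B9-domain subunit of the gate, was the transition zone gene with the most negative value, at 15.4, 14.8 and 13.8 CPM in WT and 12.4, 14.0 and 12.7 CPM in Sd/Sd. The groups overlapped through Sd/Sd replicate 2 (log2 fold change -0.17, interval -0.42 to 0.09). Of its relatives, B9d2 was at 0.02 (interval -0.27 to 0.32) and Mks1 (ENSMUSG00000034121.6), the founding B9-domain gene, at 0.06 (-0.18 to 0.30), with 21.5, 19.8 and 20.6 CPM in WT and 19.9, 20.8 and 24.0 CPM in Sd/Sd. These differences between relatives were not tested.

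Tctn1 (ENSMUSG00000038593.10), a secreted or membrane-bound gate protein needed for full hedgehog signalling in mouse embryos, held 16.1, 18.4 and 17.5 CPM in WT and 14.8, 17.7 and 14.8 CPM in Sd/Sd. Sd/Sd replicates 1 and 3 lay below every WT library and replicate 2 among them (log2 fold change -0.13, interval -0.40 to 0.13). Of its exon length, 19.0% is shared with Hvcn1 on the opposite strand, with the same limit on strand. Its paralogs Tctn2 and Tctn3 had log2 fold changes of 0.10 and 0.03, and Tmem67, a receptor-like membrane protein of the gate, 0.07.

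**Figure D3:**
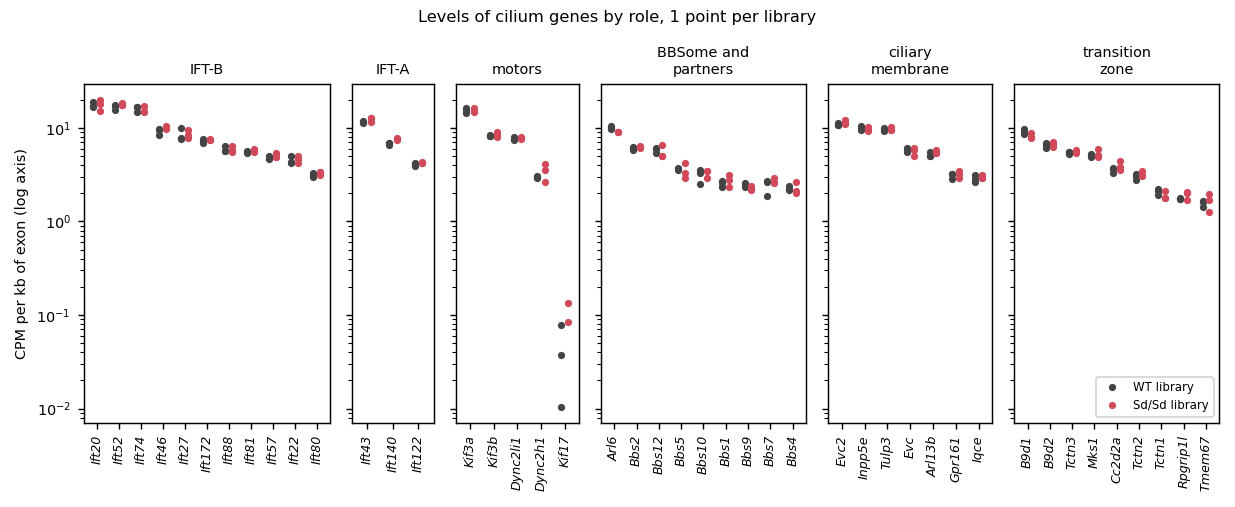
Level of each cilium gene in CPM per kb of exon (log axis), with 1 point per library (grey WT, red Sd/Sd) and genes ordered within each role by their WT mean. WT and Sd/Sd points overlap for all but 4 genes, Ift46, Ift122, Ift140 and Arl6, whose groups lie side by side; Kif17 lies far below, and its Sd/Sd replicate 1, at 0, cannot be drawn on this axis.

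Levels per length can be compared between genes. Exon lengths came from GENCODE M21, which is not the annotation of the counts, so these levels are approximate. The lengths join all annotated exons of a gene. They can exceed the length of a transcript, which then lowers the level per kb. In WT the highest level was that of Ift20, at 17.6 ± 1.15 CPM per kb (SD, n = 3), followed by Ift52 at 16.8 ± 1.16, Ift74 at 16.1 ± 1.02 and Kif3a at 15.4 ± 0.908 CPM per kb; each neighbour in this order differed by less than the spread. A gap larger than the spread followed, down to Ift43 at 11.6 ± 0.270 and Evc2 at 11.0 ± 0.368 CPM per kb. Lowest after Kif17 (0.0420 ± 0.0343 CPM per kb) stood Tmem67 at 1.57 ± 0.132 and Rpgrip1l at 1.75 ± 0.0208 CPM per kb. Within IFT-B, whose subunits work in a joint complex, the lowest was Ift80 at 3.15 ± 0.129 CPM per kb. It also had the longest exon length of this train (12428 bases). Not divided by length, Ift80 stood in WT at 39.2 CPM, below Ift46 at 59.2 and above Ift88 at 27.4 CPM.

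Sd/Sd gave a like order. Ift20 stood there at 17.8 ± 2.49, Ift52 at 17.8 ± 0.552, Ift74 at 15.8 ± 1.23 and Kif3a at 15.3 ± 0.771 CPM per kb. At the low end Tmem67 stood at 1.65 ± 0.348 and Rpgrip1l at 1.92 ± 0.207 CPM per kb. Kif3a exceeded Kif3b, at 8.30 ± 0.108 CPM per kb in WT, and Evc2 exceeded Evc, at 5.76 ± 0.327 CPM per kb, by more than their spread, and did so in Sd/Sd too, where the 4 values were 15.3 ± 0.771, 8.50 ± 0.532, 11.5 ± 0.510 and 5.61 ± 0.561 CPM per kb.

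The cilium genes also varied little between libraries of a group. Without Kif17, the within-group SD on the log2 scale had a median of 0.09 (lowest 0.04, highest 0.24), against 0.12 for all tested genes in their range of level and 0.16 for all tested genes. This is a description, since genes are not independent replicates. What variation there was did not fall evenly: Sd/Sd replicate 3 was the highest library for 20 of the 43 genes, where WT replicate 2 was the highest for 2 and the lowest for 13. Ift88, Dync2h1, Bbs4, Bbs5, Bbs12 and Tmem67 were lowest in Sd/Sd replicate 2 and highest in Sd/Sd replicate 3. Of these, Tmem67 stood there at 9.87 and 15.2 CPM and Bbs5 at 7.20 and 10.4 CPM.

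**Figure D4:**
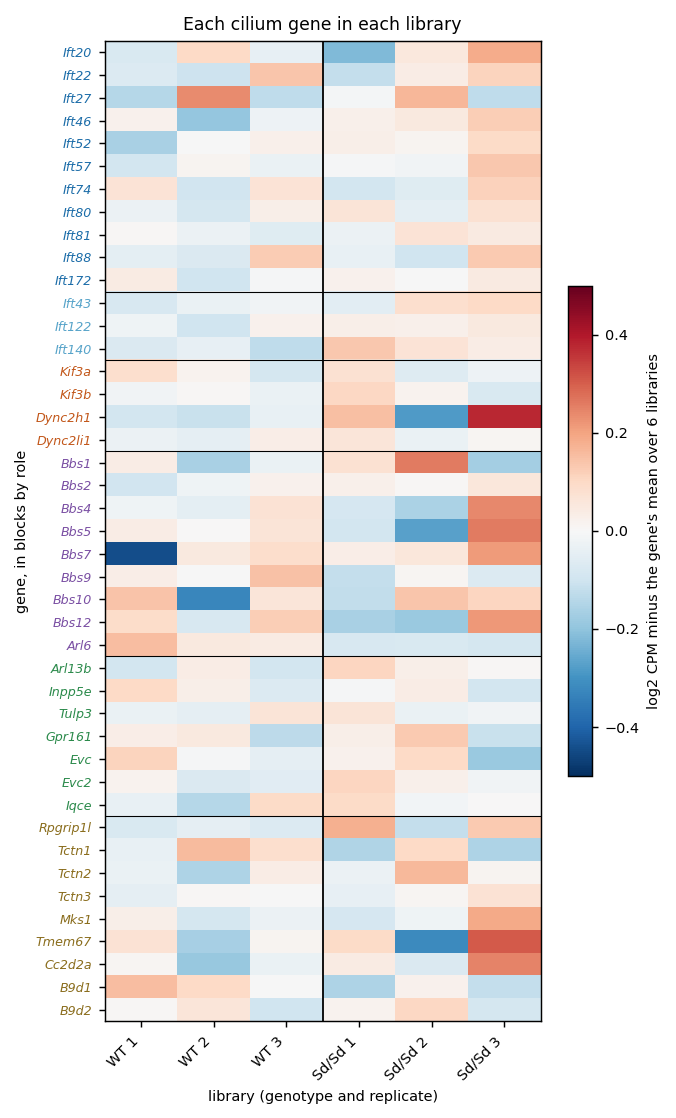
Log2 CPM of 43 cilium genes in each library, minus the gene's mean over the 6 libraries (red above, blue below), in blocks by role, with the line between WT (left) and Sd/Sd (right). The IFT-A block is mostly blue in WT and red in Sd/Sd, and the other blocks hold both colours on each side. Among the strongest colours are those of Bbs7 in WT replicate 1 and Bbs10 in WT replicate 2. Others are those of Dync2h1, Bbs5 and Tmem67 in Sd/Sd replicates 2 and 3.

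Cell type markers varied between the libraries far more than the cilium genes did. The 44 genes summed to 1296, 1267 and 1299 CPM in WT replicates 1 to 3 and 1330.1, 1308 and 1352 CPM in Sd/Sd replicates 1 to 3, a range of 1.07 times. Every Sd/Sd sum lay above every WT sum, by a small margin. Tailbud progenitor markers (T, Tbx6, Msgn1, Cdx2, Wnt3a, Fgf8, Hes7, Nkx1-2 and Evx1) were present in every library, as the tissue label has it, and summed to 547, 601 and 777 CPM in WT and 644, 362 and 873 CPM in Sd/Sd, lowest in Sd/Sd replicate 2 and highest in Sd/Sd replicate 3. Somite markers summed to 253, 168 and 189.8 CPM in WT and 303, 409 and 24.0 CPM in Sd/Sd, lowest in Sd/Sd replicate 3, where Pax1, also without a count in WT replicate 2, had none. Tailbud markers were thus highest and somite markers lowest in the library that was highest for 20 cilium genes. In Sd/Sd replicate 2, where tailbud markers were lowest and somite markers highest, 7 of the 43 cilium genes were lowest and 5 were highest. Neural tube markers, 4 of 6 tested, summed to 99.7, 72.0 and 72.6 CPM in WT and 96.7, 117 and 43.4 CPM in Sd/Sd. Blood markers, of which 3 of 4 were tested, summed to 2645, 5589 and 2384 CPM in WT and 1131, 6392 and 1846 CPM in Sd/Sd. Of the lists in which all markers were tested, notochord and floor plate markers summed to 50.4, 45.1 and 53.8 CPM in WT and 23.7, 16.0 and 13.2 CPM in Sd/Sd. Hindgut markers summed to 185, 196 and 211 CPM in WT and 148, 144 and 156 CPM in Sd/Sd. Among the hindgut markers, Epcam, Cldn6, Ihh and Foxa1 were lower in every Sd/Sd library, while Cdh1 and Sox17 overlapped between the groups. Foxa1 also counts in the notochord and floor plate list, so these lists are not independent. For mesonephric duct and intermediate mesoderm the markers were Pax2, Pax8, Ret, Lhx1 and Wt1. They summed to 81.9, 82.2 and 81.2 CPM in WT and 70.7, 71.3 and 49.8 CPM in Sd/Sd. Ret and Pax2 were lower in every Sd/Sd library, while Pax8, Lhx1 and Wt1 overlapped between the groups. Endothelium markers (467, 465 and 415 and 360.0, 347 and 484 CPM) and surface ectoderm markers (46.2, 44.7 and 37.8 and 39.9, 44.9 and 40.8 CPM) overlapped between the groups. Alas2, an X-linked blood gene, is listed at 0, as are all genes of chromosome X. The lists differ in size, and sums over few genes vary more. The part of cell makeup in the values of the cilium genes was not tested.

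**Figure D5:**
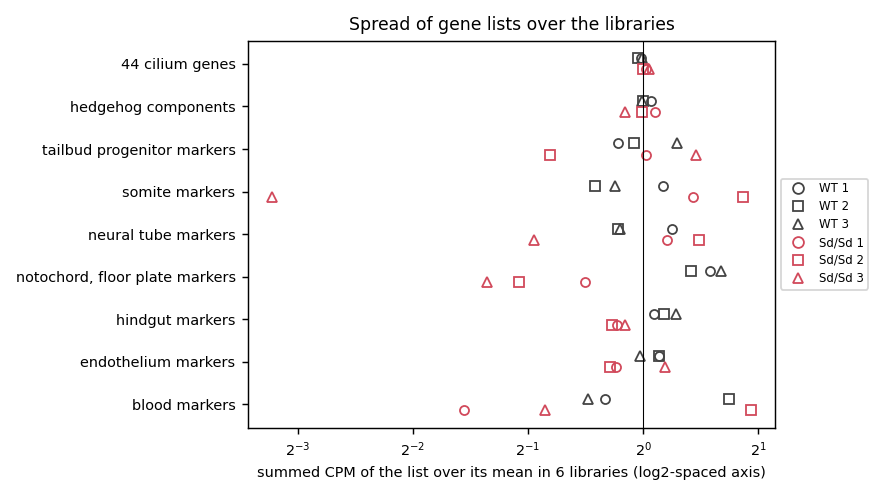
Summed CPM of gene lists in each library, divided by the list's mean over the 6 libraries (log2-spaced horizontal axis), with grey symbols for WT and red for Sd/Sd and 1 symbol shape per replicate number. The 44 cilium genes stay within 1.07 times across libraries, while somite and blood markers spread widely and notochord and floor plate markers lie lower in all Sd/Sd libraries.

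Other genes of the primary cilium were listed by name, with earlier results of these data known. Their values come from the same 6 libraries and are not independent of the result above. Of 75 names, 72 were tested (Ofd1, on chromosome X, is listed at 0, Cys1 had too few counts and 1 is an older name of a gene already listed), 0 passed the threshold and 71 had an interval inside 2-fold (67 inside 1.5-fold), with a median log2 fold change of 0.03. By group, 0 of 10 further IFT subunits passed (median 0.05), among them Ttc21b and Wdr35 of IFT-A at 0.14 and 0.09. Further motor subunits had 0 of 7 past (median 0.05), with Dynlrb1 and Wdr34 of dynein-2 at -0.09 and -0.09. Further BBS genes had 0 of 4 past, with Ttc8 at 0.20 and Mkks at 0.03.

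Basal body and ciliogenesis genes had 0 of 21 past (median 0.06). C2cd3 and Dzip1, which are needed for cilium assembly, had log2 fold changes of 0.15 and 0.18. Among lipid-protein carriers and membrane proteins 0 of 13 passed (median 0.03), with the polycystin genes Pkd1 and Pkd2 at 0.10 and 0.10. In the wider transition zone list 0 of 17 passed (median 0.04). There Tmem231, a gate membrane protein, was at 0.17 without overlap between groups. Rpgrip1, a photoreceptor gene related to Rpgrip1l, was the gene outside 2-fold: its WT libraries held 0.664, 0.549 and 0.379 CPM and its Sd/Sd libraries 0.218, 0.128 and 0.245 CPM. The groups did not overlap (log2 fold change -1.44, interval -2.49 to -0.40, edgeR adjusted p = 1.00), at levels far below those of Rpgrip1l.

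Hedgehog components that work at the cilium were tested in the same fit, and 0 of 11 passed (median log2 fold change 0.01). Smo, which encodes Smoothened, held 329, 304 and 322 CPM in WT and 339, 335 and 292 CPM in Sd/Sd (a log2 fold change of 0.02, interval -0.15 to 0.18). Kif7, the kinesin that organises the ciliary tip, was at 0.13 (-0.07 to 0.33) and Sufu, the cytoplasmic inhibitor of Gli, at 0.07 (-0.12 to 0.27). Smo, Kif7, Sufu and Gli1 are named for their roles, after their values were seen. The 2 genes with the smallest p were Gli3, the main Gli repressor gene, and Ptch1, the receptor gene that the pathway induces. Gli3 held 116, 117 and 135 CPM in WT and 148, 132 and 146 CPM in Sd/Sd, with Sd/Sd replicate 2 inside the wild-type range (0.21, interval 0.03 to 0.39). Ptch1 held 256, 250.2 and 248 CPM and 253, 175 and 170.5 CPM, with Sd/Sd replicates 2 and 3 below the wild type and replicate 1 among it (-0.34, interval -0.68 to 0.01). Gli1, another induced gene, was the member of this list with an interval beyond 2-fold (-1.28 to 0.46, around -0.41).

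RFX genes, whose factors bind the X-box, had 0 of 6 past the threshold (median 0.05). Rfx1 was at -0.10 and Rfx7 at 0.08, and Rfx3, a known factor of cilium assembly, held 49.9, 49.4 and 53.6 CPM in WT and 57.0, 46.2 and 52.9 CPM in Sd/Sd (0.03, interval -0.17 to 0.23). Rfx3 and Rfx4 were named after their values were seen. Rfx4, a gene known from neural tissue, was highest in Sd/Sd replicate 2 and lowest in Sd/Sd replicate 3, at 16.0 and 2.20 CPM, as was the sum of neural tube markers.

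Genes of motile and nodal cilia, a distinct programme, had 0 of 14 past and a median log2 fold change of -0.04, with 7 inside 2-fold. Of 19 names, 5 had too few counts. Foxj1, the master factor of motile cilia, named for that role, was low, at 3.77, 4.86 and 2.87 CPM in WT and 2.96, 3.96 and 1.51 CPM in Sd/Sd, with overlap (-0.45, interval -1.25 to 0.36). The smallest p belonged to Noto, a notochord factor that acts above Foxj1 in the node, at 8.04, 8.53 and 11.1 CPM in WT and 2.23, 0.144 and 1.71 CPM in Sd/Sd. All mutant libraries were below all wild-type ones (log2 fold change -2.79, interval -4.95 to -0.62, edgeR adjusted p = 1.00), and Noto passed when Sd/Sd replicate 2, the lowest, was left out (log2 fold change -2.23, edgeR adjusted p = 0.0247). Rsph1, a radial spoke gene of motile cilia, was at -0.91 (interval -1.83 to 0.02) with overlapping groups.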

How the data were processed

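Raw counts per gene of 6 libraries were deposited by the authors. Per the submitters' processing notes, the build was mm9 and the tools included STAR 2.5.2b, bcl2fastq 2.17.1.14, DESeq2, SAMtools and CASAVA (counter, strand setting and annotation: not given in the sources used here). Identifiers were named by GENCODE M21 (32620 of 37310 matched; the rest held 0.622% of counts and stayed in the library sizes), which also gave exon lengths and overlaps. Chromosome X identifiers hold no counts in any library.

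Genes passing filterByExpr (minimum count 10, minimum total 15) were fitted with edgeR 4.0.16 in R 4.3.3 (TMM, robust quasi-likelihood, genotype only), with Benjamini-Hochberg adjustment over 15471 genes, and the code was tested on simulated data. The biological coefficient of variation was 18.6%. The 95% interval of a log2 fold change is that change ± its standard error times the t quantile. DESeq2 1.42.0, limma-voom (limma 3.58.1), other scalings and filters, a replicate block and leaving out each library were alternatives. The floor given for a single count covers counting error only, while the 95% intervals of log2 fold changes also take in the spread between libraries.

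Values by library are given for the 8 members with the smallest p, the 3 with the largest absolute log2 fold change, those whose groups do not overlap, and those with a known place in hedgehog signalling; other lists name the 2 genes with the smallest p. Members and lists were chosen with earlier results of these data known. Replicate numbers in the titles were checked for pairing: deviations of same-numbered libraries correlated at 0.194, 0.144 and 0.275, each over 0.1, as did WT replicate 1 with Sd/Sd replicate 2 (0.182). No label says what a number stands for. No libraries of a group were duplicates.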

Additional observations from a re-analysis of the deposited data

How the results depend on the processing

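Under all 14 alternative settings chosen at the start 0 cilium members passed the threshold, 43 had an interval inside 2-fold and the median log2 fold change stayed between 0.03 and 0.06. Members with a negative value numbered 11 to 16. With a replicate block 0 members passed, the median was 0.05, 43 members were inside 2-fold and 12 had negative values, so the block changed no call among them. On leaving out each library in turn, 40 to 43 members were inside 1.5-fold. Intervals widened for the number of members, chosen after seeing the data, left 26 inside 1.5-fold. In the wider lists 1 gene (Noto) passed without Sd/Sd replicate 2, and 0 to 1 over the libraries left out. With limma-voom, the log2 fold change of Kif17 went to -0.0221; under the filter of 1 CPM it was not tested. Log2 fold changes near 0 turned sign when a library was left out: Evc ran from -0.1004 to 0.0397, Gpr161 from -0.0257 to 0.0954, Ift88 from -0.0740 to 0.0609, Inpp5e from -0.0838 to 0.00314, Iqce from -0.00203 to 0.116, Kif3a from -0.0546 to 0.0350, Mks1 from -0.0229 to 0.120 and Tulp3 from -0.0183 to 0.0439. In 174 of 175 other values under settings with all libraries the direction stayed. With 3 libraries a group, changes smaller than the intervals given could not be detected, and counts of RNA say nothing of protein or of cilia.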
